A study of Arabidopsis thaliana with 12 samples.

Results

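The 99 Arabidopsis genes described here had at least 1 alternative splice site event in the study's deposited splicing tables and neither a cassette exon nor an intron retention event there, out of 33559 genes in the expression table. An event is a pair of acceptor sites that compete for the same donor (A3SS) or a pair of donor sites that compete for the same acceptor (A5SS). The 2 tables, which the authors titled SmEb-dependent and SmEb-independent, list 137 and 208 events of all types, and 107 genes have an A3SS or A5SS event in them. Of the 99 genes kept, 29 came from the dependent table and 70 from the independent table, and 0 were in both. They hold 101 events: 17 A3SS and 12 A5SS in the dependent table and 48 A3SS and 24 A5SS in the independent table. The members were chosen by the junction read counts of each event, so the read shares below are descriptions without a test. The highest FDR of a member event was 0.0441 in the dependent table and 0.0496 in the independent table, and neither table lists an event above 0.0496.

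RNA was sequenced from seedlings of Arabidopsis thaliana, 12 days old, grown on MS medium. The genotypes were the Col-0 wild type and the mutants smeb-1 and smeb-2, for which the strain field also reads Col-0, each either untreated or exposed to 200 mM NaCl for 6 h. SmEb encodes an Sm protein of the ring that forms the core of spliceosomal small nuclear ribonucleoproteins. Each of the 6 groups had 2 libraries, called suffix 0 and suffix 1 after the ends of their column names. Nothing says whether these came from separately grown seedlings, so a p-value speaks of the spread between the libraries alone. The kind of mutation in each line is not given in the sources used here. A description field of the treated samples names Cd where their titles name salt, and the protocol allows 0 or 6 h for the controls, whose treatment field says 6 h. SmEb (AT2G18740) had FPKM of 58.9 and 55.1 in Col-0, 27.6 and 26.0 in smeb-1 and 4.93 and 6.24 in smeb-2 without salt. With salt it was at 73.3 and 76.1 in Col-0, 23.2 and 22.9 in smeb-1 and 1.92 and 2.04 in smeb-2, so all mutant libraries had less than any of Col-0 and smeb-1 kept more transcript than smeb-2. All 6 markers of photosynthetic tissue and all 4 of root reached an FPKM of 1. The photosynthetic markers summed to 37992 to 41286 FPKM without salt and to 11483 to 21200 with salt, and the root markers to 19.9 to 38.9 and 21.5 to 42.8. Their part in the results below was not tested. These are bulk samples, in which fewer cells of a type and less RNA per cell cannot be told apart.

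An intron is removed between a donor site at its 5′ end, which in most introns begins with GT, and an acceptor site at its 3′ end, which in most introns ends with AG. The U1 small nuclear ribonucleoprotein pairs with the donor, while U2AF and the U2 small nuclear ribonucleoprotein recognise the acceptor region and the branch point, and both ribonucleoproteins carry an Sm ring. Where a second usable site lies nearby, the boundary of the exon moves, which adds or removes residues when the shift keeps the reading frame and changes the frame otherwise. An upstream acceptor or a downstream donor makes the exon longer. In plants, transcripts whose stop codon lies well before the last exon junction are known targets of nonsense-mediated decay.

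The competing sites of the following events show how a boundary moves. They were chosen for their small FDR, short distance, large difference in share or unusual site sequence, where both sites lie close enough to print together. Sequences run 5′ to 3′ on the strand of the gene and were read from the RefSeq TAIR10.1 chromosomes at the TAIR10 positions of the tables. Capitals mark the last bases of the intron at each acceptor (AG or, where it is unusual, AC) or the first bases at each donor (GT or CT). Positions are those of the printed bases.
ABCG34, A3SS, chr2:15261060-15261086, plus strand: actctactaaaaaAGttgcAGgttctg
GGH2, A3SS, chr1:29594710-29594735, plus strand: tggccttgtaaacAGaacAGagacat
AT1G12730, A3SS, chr1:4335370-4335443, plus strand: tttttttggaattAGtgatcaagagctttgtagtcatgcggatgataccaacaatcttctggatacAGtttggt
AT4G38540, A3SS, chr4:18023698-18023741, plus strand: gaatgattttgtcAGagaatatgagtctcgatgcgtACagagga
AT4G38540, A5SS, chr4:18023619-18023648, plus strand: atccgaGTatgtttcttcttctCTgcacag
AT1G53250, A5SS, chr1:19858172-19858195, plus strand: cccaagGTgaagtcaaGTaagatt
SNRK2.2, A5SS, chr3:18742875-18742909, minus strand: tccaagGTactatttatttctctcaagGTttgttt
GLT1, A5SS, chr5:21701870-21701905, plus strand: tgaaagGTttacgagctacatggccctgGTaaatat
AT4G17560, A5SS, chr4:9781244-9781289, plus strand: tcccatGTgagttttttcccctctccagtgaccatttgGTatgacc
AT2G38330, A5SS, chr2:16065921-16065951, plus strand: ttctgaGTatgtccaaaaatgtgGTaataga
For LETM2 and AT1G10590, whose sites lie in the 5′ UTR and which have the smallest FDR of all A3SS members in their tables, each acceptor is printed with 18 intron bases before it.
LETM2, upstream acceptor: tttgtgaaatgatctatcAGatt
LETM2, downstream acceptor: ttcatacaatcactgtgcAGatt
AT1G10590, upstream acceptor: gatattgaaattgttgttAGgtg
AT1G10590, downstream acceptor: tttatggctaatttttgtAGggt
Across all 65 A3SS events, both sites ended in AG in 59. Of the other A3SS events, 4 paired an upstream AG with a downstream AC, 1 an upstream AC with AG and 1 an upstream GG with AG. Of the 36 A5SS events, 32 had GT at both donors, 1 paired a shorter-exon GC with GT, and in 3 the downstream donor began with CT. On the opposite strand an AC reads as GT and a CT as AG, and the strand of the reads is not given.

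Each table gives, for an event and a condition, a pair of read counts summed over libraries, headed Skip::Others. There is therefore no replicate behind a share, and the 95% Wilson intervals below cover counting error only. A further column per condition, headed Exp, was not used here. The pair does not say which site it counts first. Read as the site at the lower genome coordinate first, the only annotated site of an event had the most reference reads in 69 of the 72 member events with exactly 1 annotated site, against 33 of 72 if the first count were always the shorter exon, so the first reading was used. In the independent table, salt-treated Col-0 is set against untreated Col-0. The dependent table sets salt-treated smeb, both alleles together, against a column named Col-0 without a treatment. Its read totals per event, relative to salt-treated smeb, followed the FPKM ratio to untreated Col-0 (r = 0.855 across 136 events) more closely than the ratio to salt-treated Col-0 (r = 0.238), a description across events that share libraries. Genotype and salt therefore cannot be told apart in the dependent table. Events were read 30 to 10989 times in the treated arm (median 293) and 13 to 21229 times in the reference (median 270).

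The competing sites lay a median of 45 nt apart over all 101 events, with a larger median for A5SS than for A3SS in both tables. The median distance of A3SS sites was 36 nt in the dependent table (range 6 to 180) and 44.5 nt in the independent table (5 to 345). For A5SS it was 59 nt (10 to 510) and 72.5 nt (16 to 1156). The ranges overlapped, and no test was made of the differences. Of the dependent A3SS distances, 12 of 17 (70.6%) were a multiple of 3, against 13 of 48 (27.1%) in the independent table. A multiple of 3 does not by itself mean a kept frame, since a site can lie in a UTR or add a stop. Within the coding span, 2 of 11 dependent and 3 of 35 independent A3SS events left the frame open. Multiples of 3 made up 3 of 12 A5SS distances (25%) in the dependent and 5 of 24 (20.8%) in the independent table. The shortest A3SS shift was the 5 nt of GGH2 (AT1G78680), a gamma-glutamyl hydrolase, and the shortest A5SS shift the 10 nt of AT1G53250. The longest A3SS shift was the 345 nt assigned to APL1 (AT5G19220), a large subunit of ADP-glucose pyrophosphorylase, with an AC at the downstream site. The longest A5SS shift, 1156 nt, was in AT3G46668, annotated as a noncoding RNA, with a CT at the downstream site.

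**Figure D1:**
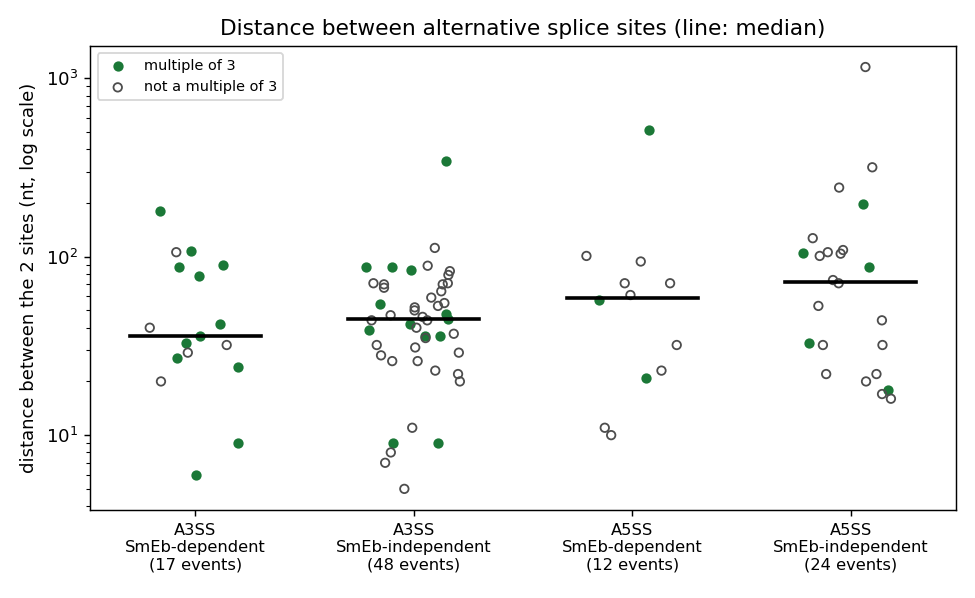
Distance between the competing sites (y axis, nt, log scale) for each of the 101 events, by event type and table, with filled points for multiples of 3 and a line at the median. All 4 sets have points between 16 and 180 nt, with medians of 36 and 44.5 nt for A3SS and 59 and 72.5 nt for A5SS.

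In most events the site used less in the reference was used more in the treated arm. This minor form gained share in 86 of 101 events, lost share in 14 and had no read in either arm in 1, and its median share was 4.39% in the reference and 15.7% in the treated arm. The minor form was defined from the same reference reads that chose the events. A form with so low a share has little room to fall, so the count is a description only. For A3SS the gain was mostly at the upstream acceptor: the longer exon had the higher share under treatment in 15 of 17 dependent and 45 of 48 independent events. Donors went both ways, with the longer exon higher in 6 and lower in 5 of 12 dependent A5SS events and higher in 17 and lower in 7 of 24 independent ones. The longer exon was itself the minor reference form in 16 of 17 dependent and 41 of 48 independent A3SS events. For A5SS it was the minor form in 5 of 12 and 17 of 24. These directions are therefore not separate from which form was rare in the reference. The median absolute difference in share was 11.9 percentage points for dependent A3SS, 7.87 for dependent A5SS, 12.9 for independent A3SS and 15.2 for independent A5SS. In 63 of 101 events the share moved by more than 10 points, and the intervals of the arms did not overlap in 95 of 101. Of the 72 events with exactly 1 annotated site, the unannotated site had the higher share under treatment in 58 and the lower in 13. Both sites were annotated in 25 events, only the one giving the shorter exon in 58, only the one giving the longer in 14, and neither in 4.

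**Figure D2:**
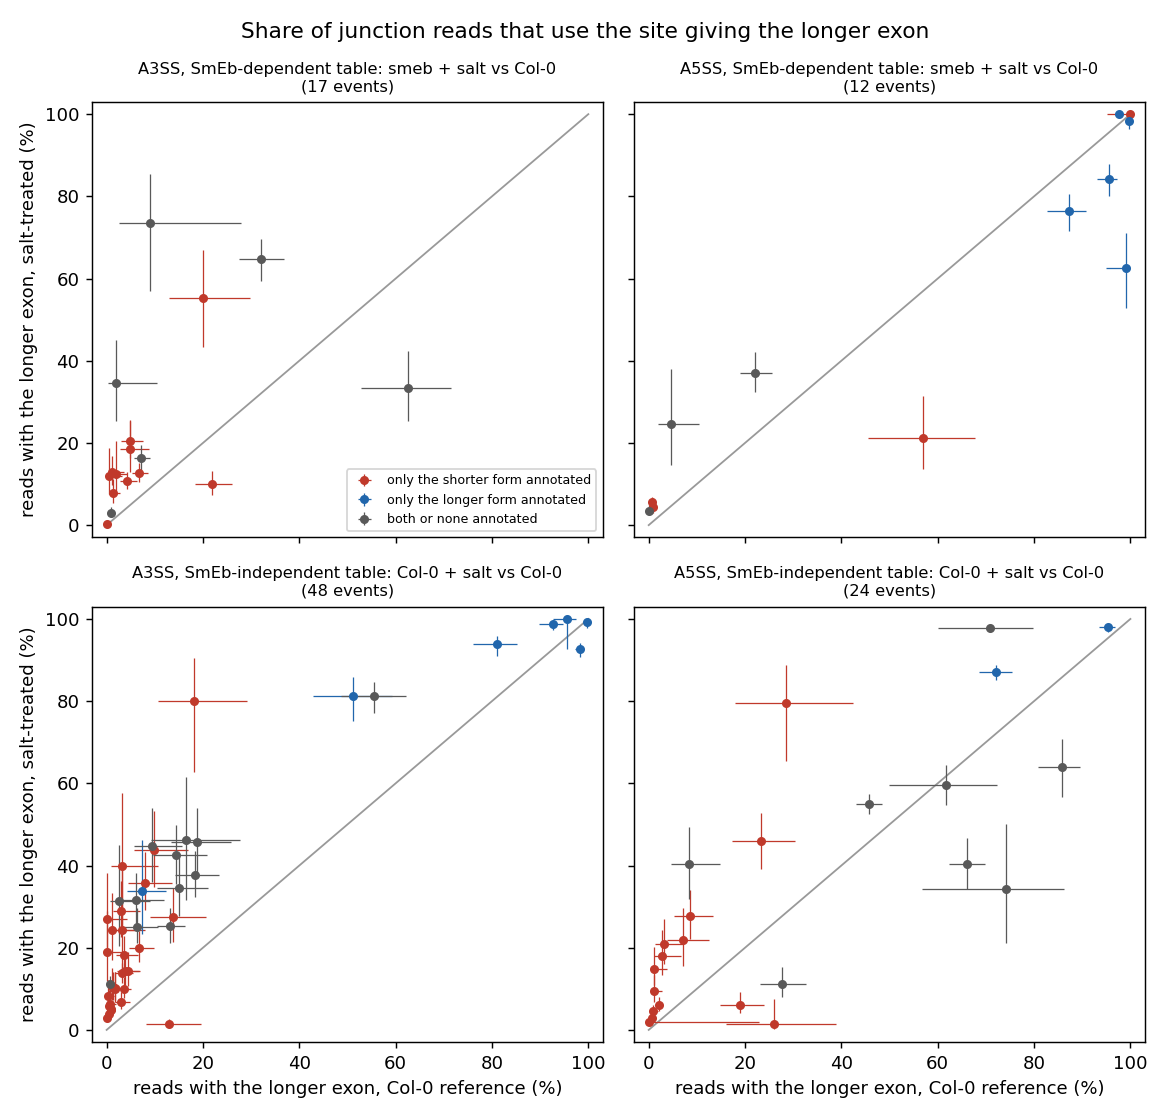
Share of reads with the longer exon in the Col-0 reference (x axis, %) and in the salt-treated arm (y axis, %) for each event, with 95% Wilson intervals, in panels by event type and table and coloured by which form is annotated. A3SS points lie above the diagonal in 60 of 65 events, and A5SS points lie above it in 23 and below it in 12 of 36.

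Among the dependent A3SS events, LETM2 (AT1G65540), a protein of the LETM1 family known from mitochondria, had the smallest FDR, which the authors' deposited table lists as 0. Its longer exon, which starts 24 nt upstream in the 5′ UTR (chr1:24366065-24366089, minus strand), went from 120 of 375 reads (32.0%, 27.5 to 36.9) in Col-0 to 207 of 320 (64.7%, 59.3 to 69.7) in salt-treated smeb, so the preferred acceptor differed between the arms. In AT3G49140, a pentatricopeptide repeat protein, the longer exon (180 nt, chr3:18213836-18214016, minus strand) went the other way, from 95 of 433 reads (21.9%, 18.3 to 26.1) in Col-0 to 38 of 384 (9.90%, 7.29 to 13.3) (authors' deposited FDR 0.000152). In ABCG34 (AT2G36380), an ABC transporter of the pleiotropic drug resistance type, the acceptors lie 6 nt apart (chr2:15261075-15261081, plus strand) and the longer exon went from 17 of 352 reads (4.83%, 3.04 to 7.60) in Col-0 to 63 of 308 (20.5%, 16.3 to 25.3) (authors' deposited FDR 0.000234). The predicted ABCG34 proteins had 1455 residues with the longer exon and 1453 with the shorter. Other dependent A3SS events were singled out after their values were seen, for size or a known role. The largest gain was in AT3G58930, an F-box protein, from 2 of 22 reads (9.09%) to 25 of 34 (73.5%). GDPD2, a glycerophosphodiester phosphodiesterase, went from 17 of 85 reads (20%) to 36 of 65 (55.4%), and its predicted protein has 89 residues with the longer exon and 374 with the shorter. The RRM-type RNA-binding protein gene AT4G26650 used an unannotated upstream acceptor more often, 33 nt into an intron of the 5′ UTR, its longer exon going from 2 of 197 reads (1.02%) to 44 of 342 (12.9%). The smallest difference was in PDE334, a subunit of the chloroplast ATP synthase whose upstream site is a GG, from 5 of 8307 reads (0.0602%) to 18 of 6090 (0.296%).

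Among the dependent A5SS events, AT4G17560, a protein of the ribosomal L19 family, had the smallest FDR. Its downstream donor (32 nt, chr4:9781249-9781281, plus strand) went from 11 of 1493 reads (0.737%, 0.412 to 1.31) in Col-0 to 79 of 1409 (5.61%, 4.52 to 6.93) in salt-treated smeb (authors' deposited FDR 6.33e-05). AT4G36790, a transporter of the major facilitator superfamily, used an unannotated upstream donor 94 nt into the exon more often (chr4:17337511-17337605, plus strand). Its longer exon went from 107 of 108 reads (99.1%, 94.9 to 99.8) in Col-0 to 65 of 104 (62.5%, 52.9 to 71.2) (authors' deposited FDR 0.000240). SNRK2.2 (AT3G50500), a protein kinase of abscisic acid signalling, used a donor 21 nt downstream (chr3:18742883-18742904, minus strand), which keeps the frame and gives 369 residues with the longer exon and 362 with the shorter. That form went from 1 of 1433 reads (0.0698%, 0.0123 to 0.394) in Col-0 to 29 of 842 (3.44%, 2.41 to 4.90) (authors' deposited FDR 0.000295). In AT1G53250, annotated as similar to a histone methyltransferase, the longer exon went from 41 of 72 reads (56.9%, 45.4 to 67.7) in Col-0 to 17 of 80 (21.2%, 13.7 to 31.4) (authors' deposited FDR 0.00173). TAFII15, a subunit of the general transcription factor TFIID singled out for that role, used an unannotated upstream donor more often, its longer exon going from 349 of 365 reads (95.6%) to 296 of 351 (84.3%). The predicted TAFII15 protein has 134 residues with the longer exon and 9 with the shorter. In TCH3, a calmodulin-like protein, the shorter form was absent from 2899 treated reads, which allows a share of up to 0.103%, where the longer exon had 97.6% in the reference. AT3G26850, annotated as a histone-lysine N-methyltransferase, has its sites in the 3′ UTR and had 0 reads of the shorter, annotated form in 75 reference reads and in 334 treated reads, which allow shares of up to 4% and 0.898%, so its listing shows no difference in share. All these reads used a donor that begins with CT. Its mean FPKM was 6.80 in untreated Col-0 and, with salt, 7.06 in smeb-1 and 7.04 in smeb-2. Whether the reads come from this gene was not tested.

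The independent A3SS events were led by AT1G10590, a nucleic acid-binding protein with an OB fold, whose upstream acceptor lies 45 nt away in the 5′ UTR (chr1:3503004-3503049, minus strand). It went from 6 of 943 reads (0.636%, 0.292 to 1.38) in Col-0 to 144 of 1276 (11.3%, 9.66 to 13.1) in salt-treated Col-0 (FDR listed as 0 in the authors' deposited table). In SBE2.1 (AT2G36390), a starch branching enzyme that lies next to ABCG34 on chromosome 2, the upstream acceptor (84 nt, chr2:15265726-15265810, plus strand) went from 5 of 440 reads (1.14%, 0.486 to 2.63) in Col-0 to 25 of 236 (10.6%, 7.28 to 15.2) (authors' deposited FDR 3.69e-05). In GGH2 the longer exon (chr1:29594725-29594730, plus strand) went from 954 of 971 reads (98.2%, 97.2 to 98.9) in Col-0 to 800 of 863 (92.7%, 90.8 to 94.3) (authors' deposited FDR 0.000149), with a predicted protein of 333 residues with the longer exon and 170 with the shorter. For APL1 the form with the downstream AC stayed rare, the longer exon going from 1320 of 1325 reads (99.6%) to 474 of 478 (99.2%), and the event reaches past the end of the annotated gene. Among events singled out after their values were seen, AT1G12730, the PIG-U subunit of GPI transamidase, had the largest gain of its table, from 12 of 66 reads (18.2%) to 24 of 30 (80.0%). Its predicted protein has 149 residues with the longer exon and 474 with the shorter. IREG1, an iron transporter of the ferroportin family, went from 2 of 64 reads (3.12%) to 12 of 30 (40.0%). PDK1, a kinase that activates AGC kinases, went from 11 of 111 reads (9.91%) to 46 of 105 (43.8%). SOS4, a pyridoxal kinase known from a salt-hypersensitive mutant, went from 3 of 440 reads (0.682%) to 15 of 239 (6.28%) at an acceptor in its 5′ UTR. PLR1, a pyridoxal reductase, went from 378 of 408 reads (92.6%) to 463 of 469 (98.7%) at an acceptor 9 nt away. In TIC40, a component of the protein import machinery of the chloroplast inner envelope, an in-frame shift of 36 nt went from 4 of 809 reads (0.494%) to 37 of 931 (3.97%). SEC61 BETA, a subunit of the translocon of the endoplasmic reticulum, went from 111 of 200 reads (55.5%) to 344 of 424 (81.1%) in its 5′ UTR. The cochaperone BAG2 went from 22 of 153 reads (14.4%) to 76 of 179 (42.5%), and the MADS-box factor AGL16 went from 3 of 238 reads (1.26%) to 30 of 294 (10.2%). HSFC1, a heat shock transcription factor of class C whose upstream site is an AC, was 1 of the 3 whose longer exon had the lower share under salt, from 17 of 132 reads (12.9%) to 10 of 658 (1.52%).

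Among the independent A5SS events, the noncoding AT3G46668 had the smallest FDR, its longer form (chr3:17192516-17193672, plus strand) going from 56 of 79 reads (70.9%, 60.1 to 79.7) in Col-0 to 1031 of 1054 (97.8%, 96.7 to 98.5) (FDR listed as 0 in the authors' deposited table). The donor of that longer form begins with CT. The FPKM of AT3G46668 in Col-0 was 3.96 and 4.32 without salt and 4.16 and 10.2 with salt, a smaller change than that of the reads. Whether the reads come from this gene was not tested. GLT1 (AT5G53460), the NADH-dependent glutamate synthase, used its downstream, annotated donor (22 nt, chr5:21701875-21701897, plus strand) more often, from 480 of 666 reads (72.1%, 68.5 to 75.3) in Col-0 to 1183 of 1358 (87.1%, 85.2 to 88.8) (authors' deposited FDR 3.21e-08). The predicted GLT1 protein has 2208 residues with the longer exon and 355 with the shorter, so the full-length form gained share. AT4G10970, annotated as a ribosome maturation factor, used its downstream donor in the 5′ UTR (109 nt, chr4:6722029-6722138, minus strand) less often, from 416 of 629 reads (66.1%, 62.4 to 69.7) in Col-0 to 96 of 238 (40.3%, 34.3 to 46.7) (authors' deposited FDR 7.13e-05). Other events were again singled out after their values were seen. The MATE-type transporter AT2G38330 had the largest gain among donors, from 14 of 49 reads (28.6%) to 35 of 44 (79.5%), with a predicted protein of 285 residues with the longer exon and 521 with the shorter. PSF1, a subunit of the GINS complex of DNA replication, had the largest loss of all 101 events, from 23 of 31 reads (74.2%) to 13 of 38 (34.2%). HDA14, a histone deacetylase, went from 36 of 155 reads (23.2%) to 95 of 207 (45.9%), and its predicted protein has 193 residues with the longer exon and 423 with the shorter. HMGB2, a chromatin protein of the high mobility group, went from 38 of 1747 reads (2.18%) to 46 of 748 (6.15%), with 49 residues with the longer exon and 142 with the shorter. DFB, a folylpolyglutamate synthetase, went from 4 of 149 reads (2.68%) to 34 of 188 (18.1%), and AKR2, a targeting factor for chloroplast outer envelope proteins, went from 632 of 1383 reads (45.7%) to 872 of 1584 (55.1%) in its 5′ UTR. ECT8, a YTH-domain reader of methylated adenosine in RNA, went from 42 of 68 reads (61.8%) to 228 of 382 (59.7%), a difference within the counting error of the reference share. The authors' deposited FDR of this event was 0.0137, so a small FDR did not always go with a difference in the shares computed here. Whether the FDR also drew on the unused Exp columns was not checked. DIN2, a beta-glucosidase known to be induced in darkness, has its sites in the 3′ UTR and had 0 of 13 reference reads with the longer exon, which allows a share of up to 23.1%, and 1.92% of 886 treated reads.

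**Figure D3:**
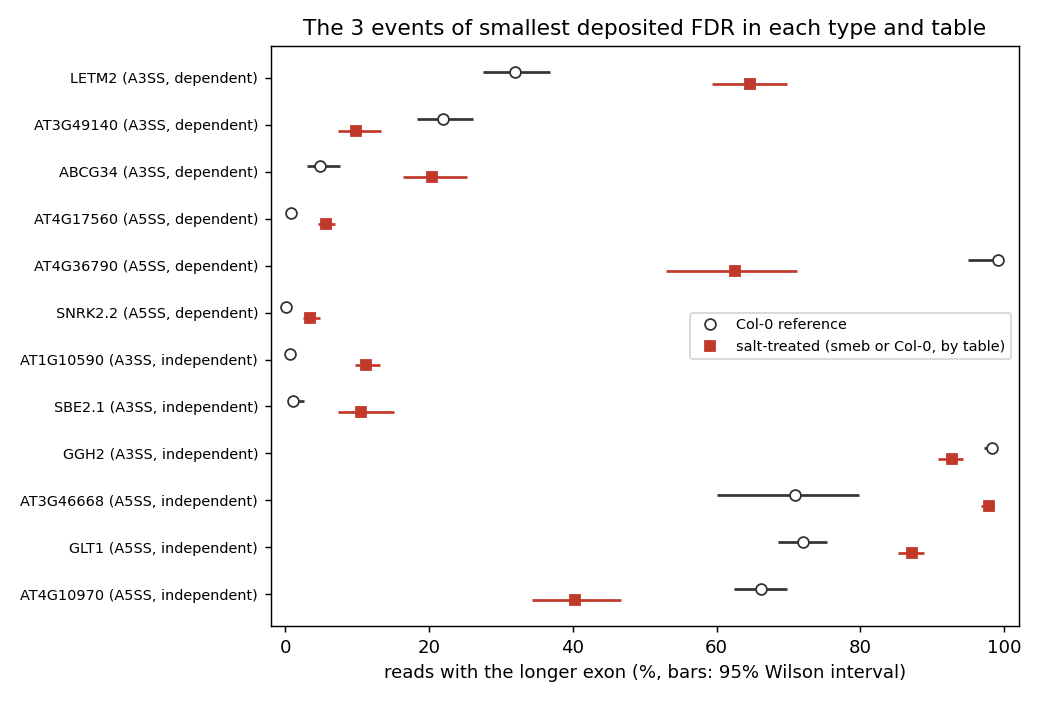
Share of reads with the longer exon (x axis, %) in the Col-0 reference (open circles) and in the salt-treated arm (filled squares), with 95% Wilson intervals, for the 3 events of smallest FDR in each type and table. The intervals of the arms do not overlap in any of these 12 events, and the arms are farthest apart in AT4G36790, at 99.1% and 62.5%.

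AT4G38540, an FAD-dependent oxidoreductase, was the only member with more than 1 event, 3 in number. Its A5SS event and its A3SS event with printed sites share the same 275 reference and 358 treated reads, so they are not separate measurements. Each pairs a usual site with a CT or an AC. A CT start and an AC end are the reverse complement of a GT start and an AG end. Whether these reads come from the opposite strand was not tested. For the A3SS event the annotated longer exon went from 223 of 275 reads (81.1%) to 336 of 358 (93.9%). The third event lies outside any gene annotated on the plus strand and went from 2 of 76 reads (2.63%) to 16 of 51 (31.4%), again with an AC site. The minus strand was not searched.

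For 6 of the 101 events the tables' position did not lie wholly inside the gene they name. SULA (AT2G21280, chromosome 2) is listed for an event on chromosome 5 in AT5G05930, and both genes carry the alias GC1. SK10 (AT3G21860, chromosome 3) is listed for an event on chromosome 1 in AT1G09840. The event of BON1 lies in AT5G61910 and that of AT1G75290 in AT1G75300. For these 4 the shares describe another gene than the one named. The event of APL1 reaches past the end of APL1 itself, and the remaining event of AT4G38540 has no gene annotated on the plus strand at its position.

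Most events fell in coding sequence, and most of those changed the reading frame or met a stop. Each event was placed on 1 annotated transcript with an intron end at either site, the first coding one in order of accession. Other transcripts of the gene were not tried, here or for the predicted proteins. By this placing, 70 of 101 lay within the coding span, 21 in the 5′ UTR, 3 in the 3′ UTR, 3 at an edge of the coding sequence and 4 in no annotated coding transcript. Of the 70 coding events, 7 left the frame open with all other residues in place: ABCG34, AT4G03200, SNRK2.2, AT5G25440, TIC40, AT1G80500 and PLR1. In 34 events only the form that gained share carried a stop more than 50 nt before the last exon junction, in 11 only the form that lost share did, and 18 fitted neither. Among dependent events these counts were 8 and 4 of 21 in coding sequence, and among independent events 26 and 7 of 49. Both forms were built on an annotated coding transcript that uses 1 of the sites, so an unannotated form is the likelier to break its frame. The unannotated site gained share in 58 of the 72 events with exactly 1 annotated site. The counts of early stops are therefore not separate from annotation. The match of each site to a matrix of 131983 annotated acceptors or 131268 annotated donors was also ranked, as the percentile among annotated sites. The gaining acceptor had a median percentile of 26.1 and the losing one of 32.7, the gaining acceptor being the lower in 36 of 65 events. For donors the order was the reverse, with medians of 38.3 and 23.9 and the gaining donor the lower in 12 of 36.

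Gene-level expression was measured as FPKM in all 12 libraries, and 96 of the 99 genes passed the filter of an FPKM of 1 in at least 2 libraries. The members were well expressed, with a median of 25.5 FPKM against 12.5 over all 20251 genes tested, and 90 of 99 had a mean of at least 5. AT1G59218, a disease resistance protein, ranged from 0.375 to 1.20 FPKM, AT1G75290 from 0.399 to 0.804, and SK10 from a listed 0 to 1.31, and these 3 were not tested. Differences below are on the log2(FPKM + 1) scale with their SE, from limma, and called means a Benjamini-Hochberg adjusted p under 0.05 across the 20251 genes. The Col-0 salt libraries differed from each other more than any other pair, by a median absolute log2 difference of 0.158 over the 96 members, where the other pairs had 0.0574 to 0.0785. Since 1 estimate of the spread serves all groups, SEs of comparisons with Col-0 salt rest mostly on the tighter pairs.

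Between smeb and Col-0 without salt, 34 of the 96 genes were called (35.4%), 11 higher and 23 lower, where 24.5% of all genes tested were called, 11.6% higher and 13.0% lower. With salt, 38 were called (39.6%), 18 higher and 20 lower, against 27.7% of all genes, 12.8% higher and 14.9% lower. The higher level of the members moves with these counts, and its part was not tested. Without salt, genes with A5SS events were called in 17 of 36 and genes with A3SS events in 17 of 61, a difference that was not tested (AT4G38540 counts in both sets). By table, 11 of 29 dependent and 23 of 67 independent genes were called without salt, and 12 and 26 with salt. The count without salt was 15 without Col-0 control suffix 0 and 16 without suffix 1. The count with salt was 14 when only the salt-treated groups were fitted and 25 without Col-0 salt suffix 1.

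For salt against control, 62 of 96 members were called in Col-0 (64.6%), 18 higher and 44 lower, where 61.8% of all genes were called, 34.1% higher and 27.7% lower. For the 67 tested genes of the independent table this is the contrast that chose them, so nothing is read from the count. In smeb-1, 49 members were called (51.0%), 12 higher and 37 lower, against 57.8% of all genes, 31.0% higher and 26.8% lower. In smeb-2, 61 were called (63.5%), 19 higher and 42 lower, against 59.7%, 32.0% higher and 27.7% lower. These counts include the 29 dependent genes, which reads of salt-treated smeb helped to choose. The contrast of the independent table holds no mutant library. Salt-treated smeb reads still took part in the choice of its 67 genes, since a cassette or intron retention event in the dependent table dropped a gene. Whether mutant reads also sorted events between the tables was not checked. Of these 67, 34 were called in smeb-1 (50.7%), 10 higher and 24 lower. In smeb-2, 45 of the 67 were called (67.2%), 17 higher and 28 lower. The median log2 difference of members was −0.15 for Col-0, −0.13 for smeb-1 and −0.15 for smeb-2, where the medians over all genes tested were 0.04, 0.03 and 0.03. Of the 34 genes named for an event whose gaining form carried an early stop, 20 were lower with salt for Col-0 (58.8%). For smeb-1 18 were lower (52.9%) and for smeb-2 19 (55.9%), while 4, 3 and 6 were higher. The 34 include SULA, whose listed event lies in another gene. Of the 7 genes with an in-frame shift, 2, 1 and 3 were lower and 0 higher. The salt response differed between the smeb lines and Col-0 in 10 members (10.4%), 9 with a higher and 1 with a lower value in smeb, against 9.96% of all genes, 6.18% higher and 3.78% lower. That count was 1 without either Col-0 control library, 24 without Col-0 salt suffix 0, and 3 to 6 without any single smeb library other than smeb-1 salt suffix 0, where it was 8. All these comparisons share libraries with each other and with the splicing tables.

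**Figure D4:**
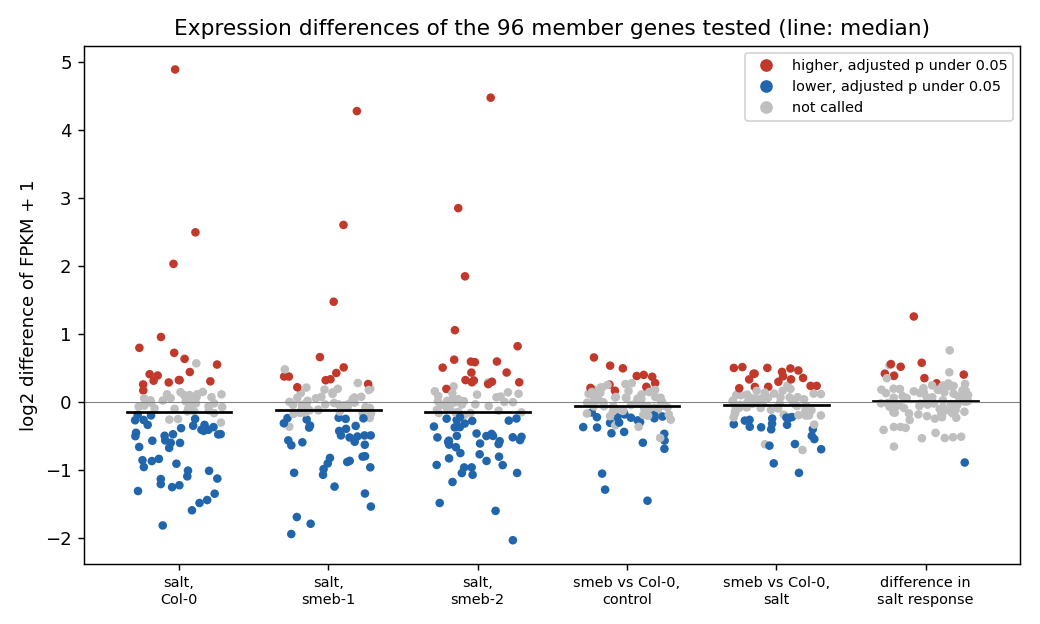
Log2 difference of FPKM + 1 (y axis) of the 96 member genes tested in each of 6 comparisons (x axis), with called genes in red (higher) and blue (lower) and a line at the median. Medians lie between −0.15 and 0.01, and DIN2, at 4.89, 4.28 and 4.47, is the highest point in the 3 salt comparisons.

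Among members lower in smeb without salt, BGLU22 (AT1G66280), a beta-glucosidase, showed the largest fall. Its FPKM was 98.5 and 101 in Col-0, 33.0 and 32.8 in smeb-1 and 36.4 and 41.3 in smeb-2. Col-0 lay far above both mutants with no overlap, a log2 difference of −1.46 ± 0.15 (adjusted p = 0.000162). With salt it was 44.6 and 38.0 in Col-0, 32.1 and 19.9 in smeb-1 and 25.6 and 23.7 in smeb-2, still without overlap of genotypes, at −0.70 ± 0.15 (adjusted p = 0.00891), a call lost when only the salt-treated groups were fitted (adjusted p = 0.0661). AT5G25440, a protein kinase with an in-frame A5SS event of 57 nt, was at 23.2 and 25.9 in Col-0, 8.10 and 10.2 in smeb-1 and 11.2 and 8.43 in smeb-2 FPKM without salt. Col-0 was again above every mutant library, at −1.29 ± 0.136 (adjusted p = 0.000183). AT5G42530, an uncharacterised and abundant transcript, was at 1409 and 1769.9 in Col-0, 704 and 1032 in smeb-1 and 781 and 584 in smeb-2, each Col-0 library lying above every mutant one. Its difference of −1.06 ± 0.242 (adjusted p = 0.0111) was lost without Col-0 control suffix 1 (adjusted p = 0.113). AT2G38740, a hydrolase of the haloacid dehalogenase type, was at 50.1 and 49.2 in Col-0, 31.3 and 33.6 in smeb-1 and 29.9 and 26.9 in smeb-2, lower in every mutant library, with a difference of −0.69 ± 0.0884 (adjusted p = 0.000514).

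Members higher in smeb without salt moved less. The transporter gene AT2G38330, whose donor choice had the largest gain under salt, was at 20.4 and 21.1 in Col-0, 34.3 and 30.2 in smeb-1 and 33.7 and 34.6 in smeb-2 FPKM. All 4 mutant libraries lay above Col-0, at 0.65 ± 0.0651 (adjusted p = 0.000140). With salt it was at 17.6 and 16.5 in Col-0, 25.7 and 24.2 in smeb-1 and 23.1 and 24.5 in smeb-2, again without overlap, at 0.49 ± 0.0651 (adjusted p = 0.000999). UNE18 (AT5G02100), an oxysterol-binding protein, was at 9.03 and 8.95 in Col-0, 13.1 and 13.6 in smeb-1 and 12.6 and 14.5 in smeb-2, higher in every mutant library, at 0.53 ± 0.0899 (adjusted p = 0.00234). SULA, whose listed event lies in another gene, was at 40.2 and 41.3 in Col-0, 59.5 and 54.1 in smeb-1 and 57.2 and 60.5 in smeb-2, also without overlap, at 0.49 ± 0.0735 (adjusted p = 0.00119). AT1G64150, a membrane protein of the UPF0016 family that used an upstream donor more in salt-treated smeb (87.2% to 76.3% for the longer exon), was at 28.8 and 35.4 in Col-0, 42.0 and 43.5 in smeb-1 and 40.9 and 43.1 in smeb-2. Its difference of 0.40 ± 0.0911 (adjusted p = 0.0115) was lost without Col-0 control suffix 0 (adjusted p = 0.138).

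With salt, AT1G64150 was at 27.1 and 23.2 in Col-0, 40.7 and 36.1 in smeb-1 and 33.8 and 33.0 in smeb-2 FPKM, the mutants above Col-0 throughout, at 0.50 ± 0.0911 (adjusted p = 0.00430). AT4G28080, a tetratricopeptide repeat protein, was at 55.6 and 55.3 in Col-0, 85.4 and 80.8 in smeb-1 and 72.5 and 79.3 in smeb-2, with a wide gap between genotypes, at 0.51 ± 0.0518 (adjusted p = 0.000283). AT4G17560, the ribosomal L19 family protein, was at 117 and 106 in Col-0, 167 and 169.9 in smeb-1 and 148 and 148 in smeb-2, and again no mutant library reached down to Col-0, at 0.50 ± 0.0508 (adjusted p = 0.000283). These 3 genes are from the dependent table, where their minor form had the larger share in salt-treated smeb. Lower with salt was AAP4 (AT5G63850), an amino acid permease, at 19.3 and 26.4 in Col-0, 10.5 and 9.93 in smeb-1 and 14.3 and 12.1 in smeb-2. The Col-0 libraries were both higher than the mutants, at −0.91 ± 0.111 (adjusted p = 0.000652). STY46 (AT4G38470), a kinase of the ACT-like family that phosphorylates chloroplast precursor proteins, was at 28.8 and 44.7 in Col-0, 19.1 and 22.6 in smeb-1 and 22.1 and 27.2 in smeb-2. The Col-0 pair was wide and its lower library close to smeb-2, and the difference of −0.65 ± 0.148 (adjusted p = 0.0119) was −0.34 (adjusted p = 0.0690) without Col-0 salt suffix 1. It was also lost when only the salt-treated groups were fitted (adjusted p = 0.0791). DIN2 (AT3G60140) was at 40.0 and 74.3 in Col-0, 16.4 and 37.3 in smeb-1 and 23.2 and 31.4 in smeb-2, with 1 Col-0 library close to the highest smeb-1 library. Its difference of −1.05 ± 0.306 (adjusted p = 0.0309) was −0.61 without Col-0 salt suffix 1 (adjusted p = 0.260) and was also lost without smeb-1 salt suffix 0 or smeb-2 salt suffix 0, with no filter on low values and when only the salt-treated groups were fitted (adjusted p from 0.0513 to 0.260).

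**Figure D5:**
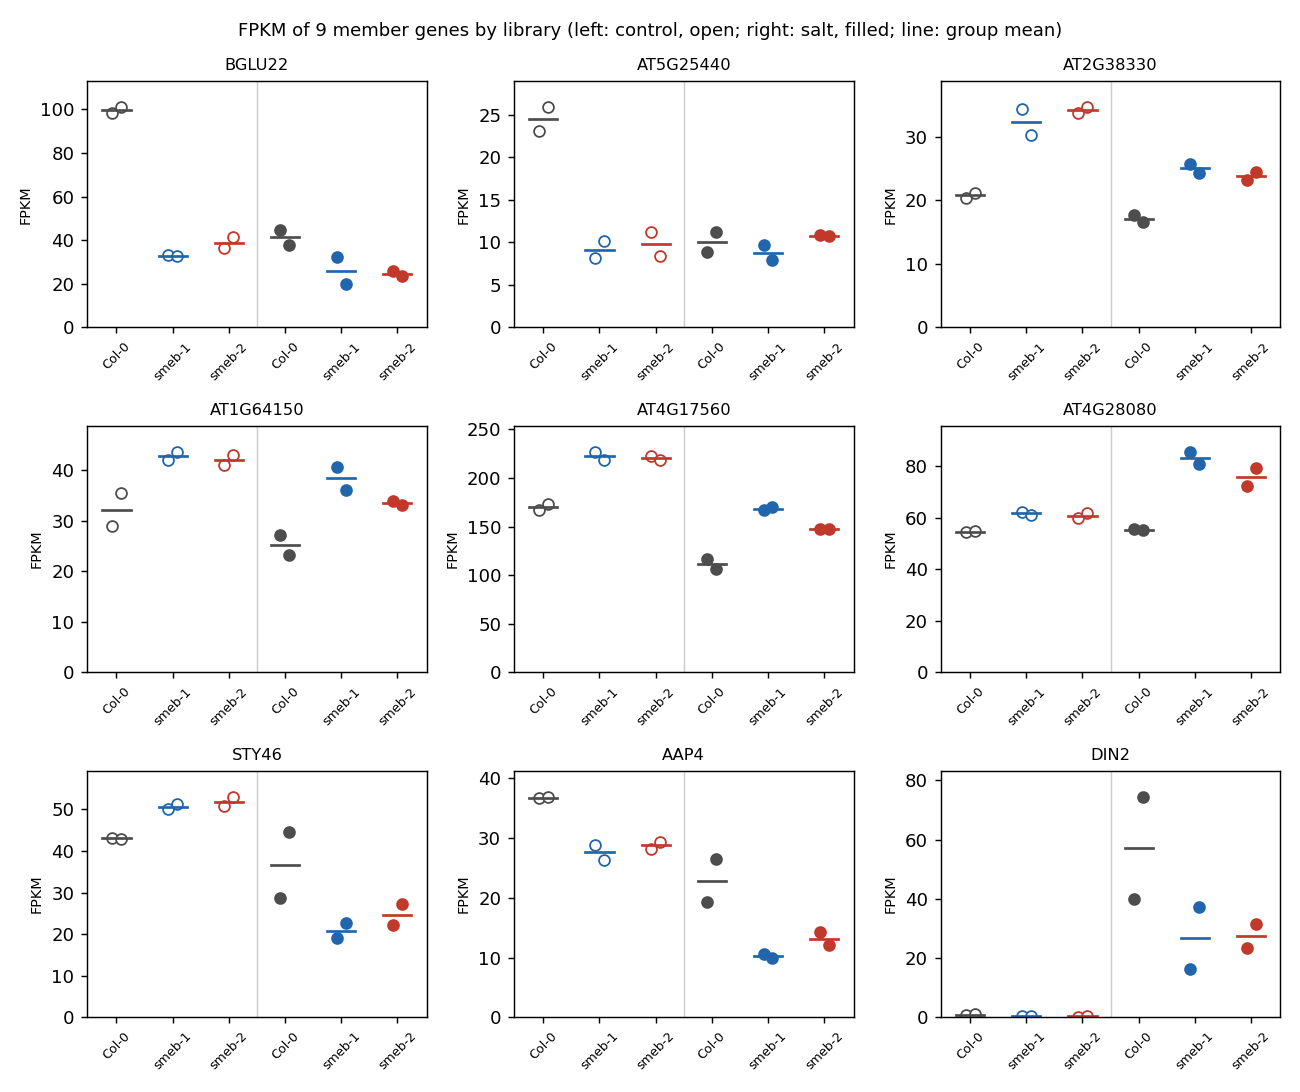
FPKM (y axis, linear) of 9 member genes in each library, by genotype, without salt (open circles, left) and with salt (filled circles, right), with a line at the mean of 2 libraries. BGLU22 and AT5G25440 are highest in Col-0 control, at 98.5 and 101 and at 23.2 and 25.9 FPKM, and the wide Col-0 salt pair is seen in STY46 and DIN2.

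The genes with the largest salt differences in Col-0 kept the direction in both mutants. For the 7 of these from the independent table the Col-0 values are a description. The p-values given for them come from the mutant libraries, which are not in the contrast of that table. Salt-treated smeb reads still helped to decide which genes were dropped, so these p-values are not free of the choice of members. DIN2 was at 0.693 and 1.07 without salt and 40.0 and 74.3 with salt in Col-0 (FPKM). The smeb-1 libraries had 0.321 and 0.341 without salt and 16.4 and 37.3 with salt, and those of smeb-2 had 0.236 and 0.284 without salt and 23.2 and 31.4 with salt. Salt libraries lay far above control libraries in each line, at 4.28 ± 0.353 (adjusted p = 5.70e-06) in smeb-1 and 4.47 ± 0.353 (adjusted p = 3.55e-06) in smeb-2, on a scale that understates it for the low controls. The FPKM of ECT8 in Col-0 was 12.7 and 11.0 without salt and 62.5 and 80.9 with salt. It was 7.17 and 7.74 without salt and 48.7 and 52.0 with salt in smeb-1, and in smeb-2 it was 8.15 and 7.46 without salt and 57.6 and 67.6 with salt. The salt and control libraries did not overlap in any line, and it rose in the mutants by 2.60 ± 0.125 (adjusted p = 1.73e-07) and 2.85 ± 0.125 (adjusted p = 8.34e-08). In Col-0, HSFC1 was at 7.09 and 6.63 without salt and 33.3 and 29.0 with salt (FPKM). In smeb-1 it was at 6.22 and 5.49 without salt and 17.3 and 18.7 with salt, and in smeb-2 at 5.79 and 6.29 without salt and 22.5 and 26.2 with salt. No pair overlapped, and HSFC1 rose by 1.47 ± 0.101 (adjusted p = 1.58e-06) in smeb-1 and 1.85 ± 0.101 (adjusted p = 3.08e-07) in smeb-2. AT1G12650, a protein of ribosomal RNA processing, was at 16.1 and 14.4 without salt and 27.2 and 34.0 with salt in Col-0 (FPKM). The smeb-1 libraries had 16.0 and 17.2 without salt and 21.8 and 21.9 with salt, and those of smeb-2 had 14.6 and 15.6 without salt and 25.2 and 22.4 with salt. All salt libraries were above the controls of their line. It rose by 0.62 ± 0.106 (adjusted p = 0.000639) in smeb-2 and by 0.37 ± 0.106 (adjusted p = 0.0125) in smeb-1, the latter lost without smeb-1 control suffix 0 (adjusted p = 0.0780) or smeb-1 salt suffix 1 (0.0535).

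Falls with salt were shared in the same way. The FPKM of AT2G29290, a Rossmann-fold protein, in Col-0 was 32.7 and 35.5 without salt and 7.52 and 10.6 with salt. It was 43.7 and 42.9 without salt and 10.7 and 10.3 with salt in smeb-1, and in smeb-2 it was 39.2 and 39.8 without salt and 7.72 and 10.2 with salt. Every salt library was below every control, with differences in smeb-1 and smeb-2 of −1.95 ± 0.143 (adjusted p = 2.57e-06) and −2.04 ± 0.143 (adjusted p = 1.62e-06). In Col-0, TCH3 (AT2G41100), from the dependent table, was at 509 and 430.4 without salt and 126 and 188 with salt (FPKM). In smeb-1 it was at 365 and 433 without salt and 129 and 143 with salt, and in smeb-2 at 355 and 326 without salt and 198 and 174 with salt. Salt and control libraries did not overlap in any line. Its difference was −1.60 ± 0.169 (adjusted p = 2.39e-05) in Col-0, −1.54 ± 0.169 (adjusted p = 3.78e-05) in smeb-1 and −0.87 ± 0.169 (adjusted p = 0.00142) in smeb-2. HMGB2 (AT1G20693) was at 179 and 183 without salt and 63.8 and 63.7 with salt in Col-0 (FPKM). The smeb-1 libraries had 159 and 172 without salt and 46.3 and 47.5 with salt, and those of smeb-2 had 164 and 154 without salt and 51.8 and 51.6 with salt. Every salt library was below every control library, and the mutant differences were −1.79 ± 0.0578 (adjusted p = 2.03e-08) and −1.61 ± 0.0578 (adjusted p = 2.63e-08). The FPKM of AT1G12730, whose longer exon gained most in its table, in Col-0 was 11.9 and 12.7 without salt and 4.09 and 3.72 with salt. It was 13.4 and 13.5 without salt and 3.40 and 3.51 with salt in smeb-1, and in smeb-2 it was 12.8 and 14.3 without salt and 4.17 and 4.18 with salt. Salt libraries were far below control libraries in each line, and its mutant differences were −1.70 ± 0.0814 (adjusted p = 1.68e-07) and −1.49 ± 0.0814 (adjusted p = 3.05e-07).

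Of the members whose salt response differed between the smeb lines and Col-0, the 4 with the largest differences were examined further. In Col-0, AT5G25440 was at 23.2 and 25.9 without salt and 8.91 and 11.2 with salt (FPKM). In smeb-1 it was at 8.10 and 10.2 without salt and 9.68 and 7.87 with salt, and in smeb-2 at 11.2 and 8.43 without salt and 10.8 and 10.7 with salt. It was lower with salt in Col-0 and already at that level in the untreated mutants, a difference in response of 1.25 ± 0.193 (adjusted p = 0.00395). AT2G38740 was at 50.1 and 49.2 without salt and 42.3 and 34.3 with salt in Col-0 (FPKM). The smeb-1 libraries had 31.3 and 33.6 without salt and 37.2 and 33.3 with salt, and those of smeb-2 had 29.9 and 26.9 without salt and 33.6 and 36.2 with salt. The Col-0 controls stood above all other libraries. The difference in response of 0.57 ± 0.125 (adjusted p = 0.0193) was lost without either Col-0 control library (adjusted p = 0.0743 without suffix 0 and 0.0754 without suffix 1). The FPKM of AT2G38870, a protease inhibitor of the potato inhibitor I type, in Col-0 was 45.4 and 46.8 without salt and 50.9 and 63.9 with salt. It was 45.8 and 50.5 without salt and 72.4 and 80.6 with salt in smeb-1, and in smeb-2 it was 36.5 and 35.8 without salt and 74.5 and 77.8 with salt. All salt libraries were above their controls, and the difference in response was 0.55 ± 0.123 (adjusted p = 0.0212). That call was lost without either Col-0 control library, smeb-1 control suffix 0 or smeb-2 control suffix 1 (adjusted p from 0.0503 to 0.0936). In Col-0, STY46 was at 43.2 and 42.9 without salt and 28.8 and 44.7 with salt (FPKM). In smeb-1 it was at 50.1 and 51.4 without salt and 19.1 and 22.6 with salt, and in smeb-2 at 50.7 and 52.9 without salt and 22.1 and 27.2 with salt. Mutant libraries were lower with salt without overlap, while the Col-0 pairs overlapped. The difference in response was −0.89 ± 0.209 (adjusted p = 0.0263), which was lost with no filter on low values and without either Col-0 control library, either smeb-1 control library, smeb-1 salt suffix 0, smeb-2 control suffix 1 or smeb-2 salt suffix 0 (adjusted p from 0.0537 to 0.0984).

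The members taken as RNA-binding regulators are ECT8 and AT4G26650. ECT8 was lower in smeb without salt, at −0.57 ± 0.109 (adjusted p = 0.00442), which was lost without Col-0 control suffix 0 (adjusted p = 0.0592). With salt it was at −0.34 ± 0.109 (adjusted p = 0.0436), a call that 12 alternatives lost (adjusted p from 0.0517 to 0.361), the difference being −0.16 without Col-0 salt suffix 1. AT4G26650 was at 17.1 and 16.9 in Col-0, 20.9 and 21.4 in smeb-1 and 20.5 and 18.9 in smeb-2 FPKM without salt and at 22.9 and 22.7 in Col-0, 25.2 and 28.1 in smeb-1 and 27.0 and 26.8 in smeb-2 with salt. It rose with salt by 0.32 ± 0.0688 (adjusted p = 0.00297) in smeb-1 and 0.43 ± 0.0688 (adjusted p = 0.000414) in smeb-2. It was higher in smeb without salt by 0.25 ± 0.0596 (adjusted p = 0.0130), which was lost without either Col-0 control library (adjusted p = 0.0755 and 0.0958). With salt the difference was 0.22 ± 0.0596 (adjusted p = 0.0232), lost when only the salt-treated groups were fitted and without Col-0 salt suffix 1, smeb-1 salt suffix 1 or smeb-2 salt suffix 0 (adjusted p from 0.0579 to 0.0964).

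Genes that act on donor and acceptor sites were also counted, none of them a member. Of 8 genes for donor recognition, proteins of the U1 ribonucleoprotein and its partners, 1 was higher, 2 were lower and 5 not called with salt for Col-0. The counts were 0, 2 and 6 for smeb-1 and 1, 2 and 5 for smeb-2. In smeb without salt 2 were higher, 1 lower and 5 not called, U1A at 0.27 ± 0.0600 (adjusted p = 0.0101) and U1-70K at −0.38 ± 0.0653 (adjusted p = 0.00255). With salt 1 was higher, 1 lower and 6 not called in smeb against Col-0. Of 8 genes for acceptor recognition, 3 were higher, 1 lower and 4 not called with salt in Col-0, ATU2AF65A, the large U2AF subunit, being at −0.52 ± 0.0741 (adjusted p = 0.000191). For smeb-1 and for smeb-2, 1 was higher, 1 lower and 6 not called. In smeb 0 of the 8 were called without salt, and 2 were lower and 6 not called with salt, ATU2AF35A, the small U2AF subunit, being lower at −0.28 ± 0.0673 (adjusted p = 0.0140). For the difference in salt response, 0 genes of both lists were called. The percentages over all genes given above are the background for these counts.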

How the data were processed

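The submitters' processing notes name Trimmomatic 0.32, TopHat2 2.0.13 and the TAIR10 build for the 12 libraries. The FPKM values per gene and library are as deposited by the authors, scaled by gene length and library total; no source used here gives the quantifier, strand use or library totals, so depth is unknown, and near-identical or antisense genes may share reads. FPKM summed to between 738721 and 848257 per library. The splicing tables hold, per the file headers, paired read counts of both forms of an event, and next to them the p-value and FDR that the authors computed. Replicates are pooled in them. The columns headed Exp were not used. The splicing caller is not given in the sources used here.

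Members were the genes with an A3SS or A5SS row and no cassette or intron retention row, without 1 gene that is not reported here. The members and lists were chosen with earlier results of these data known. Shares are reads of the longer exon over both forms, with 95% Wilson intervals. Exon bounds, products and sequences came from RefSeq TAIR10.1, whose nuclear chromosomes were used for TAIR10 positions, and all 99 genes matched it. Another gene list is not reported here. A list gene, AT4G03120, was dropped because its annotated product does not name it.

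Genes that reached an FPKM of 1 in 2 or more libraries were fitted as log2(FPKM + 1) with limma 3.58.1 (trend) in R 4.3.3, with 1 mean for each of 6 groups and 6 residual degrees of freedom, with Benjamini-Hochberg adjustment over all genes of a comparison. The steps were tested on simulated data. Named by rule were the 3 events of smallest FDR in each type and table, the shortest and longest shifts, genes with several events, the 4 largest called rises and falls of members in 3 comparisons, up to 4 for the difference in salt response, and RNA-binding members. Tried as alternatives were quantile and median-of-ratios scaling, a pseudocount of 0.1, all genes without a filter, a fit of only the groups compared, a block, each library left out, and subsets of events. The subsets restricted to events inside the named gene were added after the data were seen.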

Additional observations from a re-analysis of the deposited data

Results flagged for a closer look

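In 4 member genes the salt response of the smeb lines differed from that of Col-0 by the test of the difference itself. The differences (smeb lines minus Col-0, log2 of FPKM + 1) were 1.25 for AT5G25440, −0.89 for STY46, 0.57 for AT2G38740 and 0.55 for AT2G38870. AT5G25440 was lower with salt in Col-0, while the untreated mutants were already at that level, and its call held under every alternative run. The calls of the other 3 were each lost without either Col-0 control library. These 4 are the largest among 10 member genes called for this difference, a share of 10.4% where 9.96% of all genes were called.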

How the results depend on the processing

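The distances, share differences and shares of multiples of 3 stayed within 1.5 times of their values under every subset of events run. For members called, leaving out each library in turn gave 15 to 43 for smeb against Col-0 without salt (34 with all libraries), 25 to 49 with salt (38) and 1 to 24 for the difference in salt response (10). It gave 50 to 60 for salt in Col-0 (62), 43 to 57 in smeb-1 (49) and 49 to 64 in smeb-2 (61). The count without salt was 15 without Col-0 control suffix 0 and 16 without suffix 1. The difference in salt response gave 1 gene without either Col-0 control library, 24 without Col-0 salt suffix 0, and 6 with no filter on low values. The fit of only the groups compared gave 14 for smeb against Col-0 with salt. The cause was not tested. Of 900 values of 50 gene results under the alternatives, 855 kept their direction and side of the threshold, 45 lost the call and 0 reversed. The suffix does not pair the libraries: differences between suffixes correlated at −0.13 to 0.11 over 15 pairs of groups, and with the suffix as a replicate block the counts were 30, 38 and 8 for the 3 genotype comparisons and 61, 49 and 60 for salt. Without read totals, depth sets no stated limit on FPKM; for splicing, events with few reads, such as those of DIN2 and PSF1, limit the shares.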
